A study of Mus musculus with 34 samples.

Results

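CD4+ spleen cells of DBA/2J mice, an inbred strain, were compared after 4 h of stimulation with those of 4 other inbred strains: A/J, Balb/c, C57BL/6J and 129X1/SvJ. The comparison took every stimulated (T1) array, 17 of the 34 arrays in the series: 3 of DBA/2J, 4 of A/J, 3 of Balb/c, 4 of C57BL/6J and 3 of 129X1/SvJ. For each gene the mean of the 3 DBA/2J arrays was set against the mean of the 4 other strain means, so that each other strain had the same weight. All mice were female and 8 weeks old, and the labels name no engineered allele in any of them. CD4+ cells were drawn from spleen with magnetic beads, and the T1 cells received ionomycin (1 uM) together with the phorbol ester PMA (10 ng/ml). The T0 arrays hold RNA of unstimulated cells of the same strains in the same numbers. They are named a basal state, while the treatment text can also be read to mean that T0 cells were cultured, so stimulation and culture cannot be told apart in any comparison of T1 with T0. Replicates are called biological, with no word on whether an array holds 1 mouse or a pool, and p-values here measure the spread between these samples.

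PMA, phorbol 12-myristate 13-acetate, activates protein kinase C and ionomycin lets calcium into the cell, so the pair switches on the transcription factors AP-1, NF-kappaB and NFAT without engaging the T cell receptor. Helper T cells answer within hours by transcribing cytokines and chemokines and by lowering genes of the resting state. Inbred strains differ from each other at fixed sites throughout the genome, and a gene can differ between them at rest, after activation, or at both times.

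The DBA/2J T1 arrays carried the T cell markers Cd4 (log2 intensity 7.91 to 8.15), Cd3e (8.47 to 8.74) and Cd2 (10.39 to 10.47). Other cells were also present in the beads' yield: the erythroid gene Alas2 lay at 10.80 to 11.48 and the plasma cell gene Jchain at 9.45 to 10.01, while Cd8a lay at 5.70 to 6.05. The platelet genes Pf4 and Ppbp, the neutrophil gene S100a8 and the NK cell genes Klrd1 and Ncr1 did not reach the limit used for keeping a gene, a log2 intensity of 5.327 in at least 1 T1 strain mean. In bulk RNA such as this, fewer cells of a type and less RNA per cell cannot be told apart. The library labelled Balb/c T1 replicate 2 went against its label. It correlated best with a C57BL/6J array (r = 0.976, across genes) and less well with its own group (0.948). Its Rab34 value was 5.31 where the other Balb/c arrays had 7.68 and 7.72, its Trim12a value was 7.24 where they had 3.79 and 3.83, and its Kcnma1 value was 10.83 where no other array outside DBA/2J passed 3.49. Other genes lay nearer to its label: H2-Ea was at 10.24 (other Balb/c arrays 11.23 and 11.53, C57BL/6J 4.42 to 5.16) and Mid1 at 9.71 (10.15 and 10.48, C57BL/6J 7.15 to 9.08). Whether the sample is mixed or swapped was not tested. Each main result is therefore given with and without it.

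After stimulation 746 of the 10951 genes kept (6.81%) differed between DBA/2J and the other strains at an adjusted p under 0.05, by limma's moderated test with Benjamini-Hochberg adjustment over all genes kept. Such genes are termed called below. Of these, 217 were higher in DBA/2J (1.98% of the genes kept) and 529 were lower (4.83%), so that 70.9% of the called genes were lower. Most differences were small: their median size was 0.51 on the log2 scale, with 21 genes at least 1 log2 unit higher and 29 at least 1 lower. In 83 of the higher genes (0.758% of the genes kept) and 204 of the lower (1.86%) the DBA/2J arrays lay entirely beyond the other 14, whereas this held with or without a call for 0.941% (above) and 2.16% (below) of all genes kept. Without the library labelled Balb/c T1 replicate 2, 1399 genes were called (12.8%), 396 higher (3.62%) and 1003 lower (9.16%), and all 746 were among them with the same sign. The count fell to 241, 236 and 305 without DBA/2J T1 replicate 2, 3 and 4. The lean toward lower genes depended on the scaling: with each array centred on its median, 54.4% of 846 called genes were lower, and with quantile normalization of these arrays 63.2% of 946.

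Leading genes were taken by size of difference among called genes whose DBA/2J arrays lay entirely above or below the other 14, so the lack of overlap in them was fixed by the choice. Unnamed transcripts were passed over, and genes that overlapped, such as Gbp2b and Lyz2, fell outside it whatever their size. Those above the other strains included H2-Ea, Mlycd, Zfp949, F3 and Stab2, by 1.89 to 4.16 log2 units. Those below included Trav14-1, Gbp8, Ndrg3 and Snord15a, at -1.52 to -1.31. All 9 of these were called without each array in turn.

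H2-Ea encodes the alpha chain of the class II molecule I-E, which presents peptides to CD4+ T cells. It is known to be silent in strains of the b haplotype, which include C57BL/6J and 129X1/SvJ. Its 3 DBA/2J arrays read 11.76, 12.05 and 11.73, against a lowest value of 4.42, a median of 7.45 and a highest of 11.53 in the other 14. The difference was 4.16 (SE 0.22, adjusted p = 1.85e-09; limma). It was largest against C57BL/6J (7.02) and 129X1/SvJ (7.07), whose arrays all lay under the limit for keeping a gene (highest values 5.16 and 5.13), so these sizes and that against the 4 strains are not exact. Against A/J it was 1.71 (adjusted p = 0.000715), and against Balb/c, which carries a functional gene too, it was 0.85 (adjusted p = 0.109, and 0.266 without the library that opposed its label). At T0 the difference was 4.21.

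Mlycd, malonyl-CoA decarboxylase, removes the metabolite that holds back fatty acid oxidation in mitochondria. Its DBA/2J values were 8.74, 8.59 and 7.45, and those of the other arrays ran from 5.13 through a median of 5.55 to 5.77. All 3 DBA/2J arrays were above all others, although they differed among themselves by more than the other 14 did. The difference was 2.74 (SE 0.19, adjusted p = 4.34e-08; limma), 2.65 to 2.79 against the separate strains, and 3.14 at T0. Stab2, a scavenger receptor for hyaluronan best known from sinusoidal endothelium, read 7.15, 7.0 and 7.41 in DBA/2J and 5.13 to 5.55 elsewhere (median 5.27). It was 1.89 higher (SE 0.10, adjusted p = 1.75e-09; limma). Since the other strains lay about the limit for keeping a gene, this size is not exact. The gap was wider before stimulation, 3.37 at T0, with DBA/2J at 8.30 to 8.57 and the others at 4.81 to 5.49. Zfp949, a zinc finger gene, was 2.14 higher (SE 0.13, adjusted p = 1.3e-08; limma) with DBA/2J arrays at 7.25, 6.59 and 6.89 and the others at 4.37 to 5.36 (median 4.70), about or under the limit, so that size is not exact either. Its T0 difference was 1.67.

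Slc1a5, the glutamine transporter ASCT2, was among the best measured of the smaller differences. DBA/2J read 10.68, 10.52 and 10.52, and the other arrays 8.94 to 10.27 with a median of 9.73. It was 0.92 higher at T1 (SE 0.09, adjusted p = 2.04e-06; limma) and 0.99 higher at T0. The order of strains was the same at both times for the extremes: 129X1/SvJ had the lowest mean (9.03 at T1, 7.55 at T0), and C57BL/6J came closest to DBA/2J (10.15 and 9.51 against 10.57 and 9.51). Sfi1, a centrosome gene, was 0.98 higher at T1 (SE 0.15, adjusted p = 0.000626; limma) and 1.65 higher at T0.

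Ndrg3, a member of the NDRG family, was among the genes that were lower at both times. DBA/2J read 6.11, 6.02 and 6.02 and the other arrays 7.13 to 7.60 (median 7.39). It was lower by 1.31 at T1 (difference -1.31, SE 0.08, adjusted p = 1.71e-08; limma) and the T0 difference was -1.97. Gbp8, a guanylate-binding protein gene, read 7.62, 7.77 and 8.28 against 8.45 to 10.22 (median 9.61), a difference of -1.47 (SE 0.22, adjusted p = 0.000651; limma). Against 129X1/SvJ, the other strain with low Gbp8, the difference was -0.86 (adjusted p = 0.14, and 0.0203 without the library that opposed its label).

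The remaining lower genes of this size came from varied functions. Sft2d2, a vesicle transport gene, differed by -1.16 (SE 0.12), Man2a2, a mannosidase that trims N-glycans, by -1.03 (SE 0.13), and Tlr1, a receptor for bacterial lipopeptides, by -1.05 (SE 0.17). Snord15a, a small nucleolar RNA, differed by -1.31 (SE 0.17), Cacna1e, a voltage-gated calcium channel gene, by -1.25 (SE 0.15) and the T cell receptor segment Trav14-1 by -1.52 (SE 0.21). Adjusted p in this group was at most 0.00104 (limma). RNA of receptor segments with near-identical sequence can bind the same probes, so Trav14-1 is uncertain as a single segment. The DBA/2J arrays lay under the limit for keeping a gene in Cacna1e and Trav14-1, with means of 4.44 and 4.66, so these 2 sizes are not exact. H2-T10, a class Ib gene, and Slc28a2b, a nucleoside transporter gene, met the same rule at -1.03 each, but H2-T10 lost its call without DBA/2J T1 replicate 2 (adjusted p = 0.0553) and Slc28a2b without DBA/2J T1 replicate 2, 3 or 4 (0.0964, 0.113 and 0.0649; limma).

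**Figure D1:**
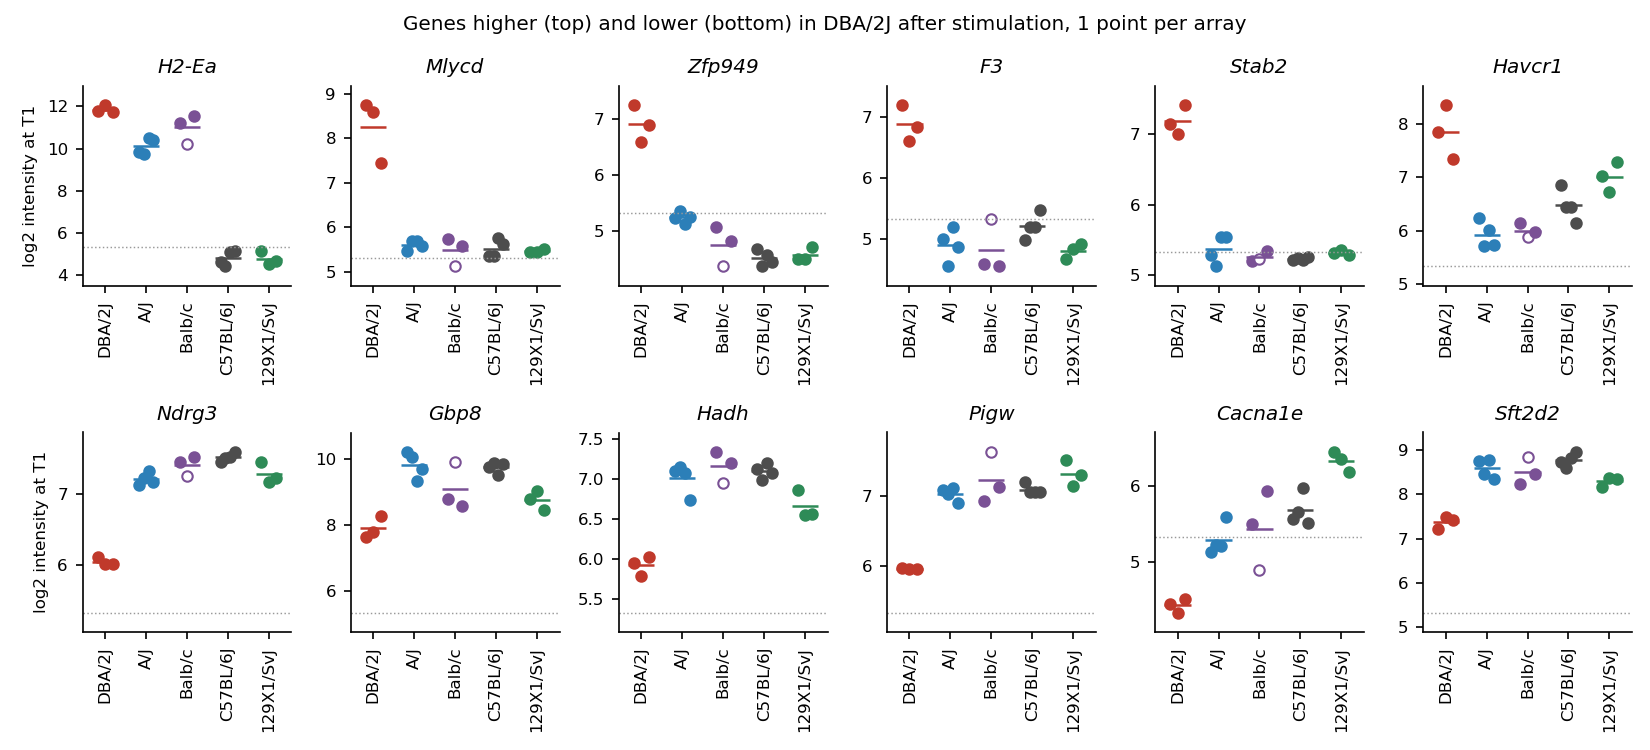
Log2 intensity at T1 of 6 genes higher (top) and 6 lower (bottom) in DBA/2J, 1 point per array in each of the 5 strains, with bars at strain means, an open circle for the library labelled Balb/c T1 replicate 2 and a dotted line at the limit of 5.327. In each panel the 3 DBA/2J points lie beyond the other 14, as the choice of genes required; for H2-Ea, A/J and Balb/c lie near DBA/2J while C57BL/6J and 129X1/SvJ lie under the limit.

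The 17 T0 arrays were tested in the same way, and 802 genes (7.32%) were called, 358 higher (3.27%) and 444 lower (4.05%). The 2 comparisons share no array. Both lists held 206 genes, which is 27.6% of the T1 list and 25.7% of the T0 list, and 194 of them had the same sign. Of the 217 genes higher at T1, 68 were also called higher at T0, and of the 529 lower genes, 126 were called lower at T0. The T0 count fell to 445 without DBA/2J T0 replicate 3 and to 471 without replicate 4. Without the library labelled Balb/c T1 replicate 2 the lists shared 285 genes, 20.4% of the T1 list and 35.5% of the T0 list.

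**Figure D2:**
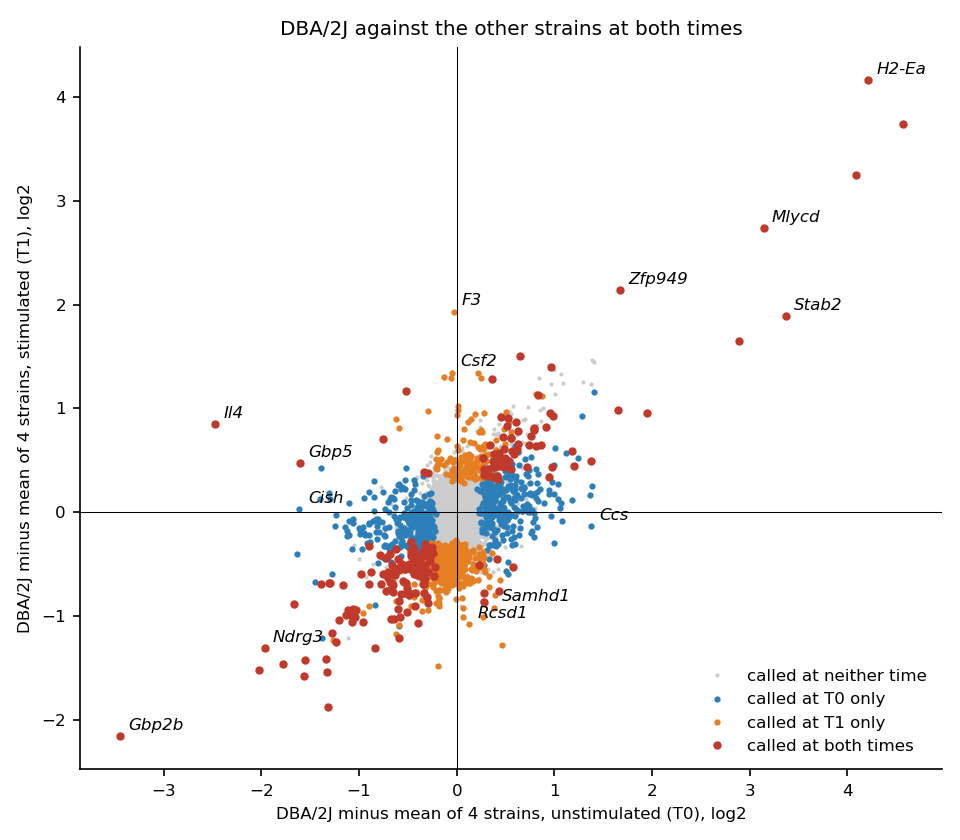
DBA/2J minus the mean of the 4 other strain means at T0 (horizontal axis) and at T1 (vertical axis), both in log2 units, 1 point per gene, coloured by the comparisons in which it was called. H2-Ea, Mlycd and Stab2 lie far to the right at both times, F3 and Csf2 lie high at T1 with T0 differences near 0, and Il4 lies far left at T0 and above 0 at T1.

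Whether DBA/2J cells answered stimulation differently was tested directly, as the T1 minus T0 change in DBA/2J minus the mean of that change in the 4 other strains, over all 34 arrays. This response difference was called for 262 genes (2.39%), 100 positive (0.913%) and 162 negative (1.48%). Without the library labelled Balb/c T1 replicate 2 there were 584 (5.33%). The count was 135, 165 and 166 without DBA/2J T1 replicate 2, 3 and 4, and 151 and 152 without DBA/2J T0 replicate 2 and 4. It was 412 when arrays of the same strain and number were treated as a pair. The T1 comparison and the response share their T1 arrays, so their values are set side by side here and lend each other no support.

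Genes with a positive response difference that was called, and a T0 difference that was not, included F3, Csf2, Rgs16 and Timd2. F3, tissue factor, is the cell surface protein that starts blood coagulation, and it is inducible by inflammatory stimuli in monocytes. It read 7.19, 6.61 and 6.83 in DBA/2J at T1, whereas the other arrays ran from 4.56 through 4.96 to 5.48. At T0 DBA/2J read 3.93, 4.00 and 3.77 and the others 3.74 to 4.21. Stimulated DBA/2J cells thus lay clear of every other array, and unstimulated ones lay among them. The T1 difference was 1.93 (SE 0.16, adjusted p = 5.8e-07; limma), 1.66 to 2.06 against the separate strains, and the response difference was 1.96 (SE 0.20, adjusted p = 1.73e-07; limma). The other strains and all T0 arrays lay near or under the limit for keeping a gene, so these sizes are not exact. The mean of 22 myeloid and dendritic marker genes per T1 array was 6.43 to 6.93 in DBA/2J and 6.28 to 7.42 in the others, and its part in the F3 values was not tested.

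Csf2 encodes GM-CSF, a cytokine of activated T cells that supports macrophages, granulocytes and dendritic cells. DBA/2J read 9.54, 9.50 and 9.80 at T1, and the others 7.30 to 8.70 with a median of 8.38. The groups did not overlap. The difference was 1.35 (SE 0.21, adjusted p = 0.000882; limma), or 2.54-fold, and the 4 strain means were close together at 8.13 to 8.36. At T0 the difference was -0.05, with DBA/2J at 4.20, 4.50 and 4.96. The response difference was 1.40 (SE 0.29, adjusted p = 0.00595; limma), not exact in size because the T0 strain means lay under the limit. Il3, the interleukin gene next to Csf2 in the RefSeq gene order, followed another strain pattern. Its T1 values in DBA/2J were 9.37, 9.03 and 8.70, within the range of the others (6.47 to 9.81, median 8.11). It was 1.83 higher than A/J and 1.89 higher than 129X1/SvJ, while its differences from Balb/c (-0.23, adjusted p = 0.722) and C57BL/6J (0.11, adjusted p = 0.849) were not called. Its call against the 4 strains (0.90, adjusted p = 0.0186; limma) was lost without DBA/2J T1 replicate 2 or 3 (0.166 and 0.0906).

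The promoters of these stimulation-linked genes are shown because the drugs used act through NFAT and AP-1. Each is the 250 bases before the RefSeq start site in GRCm38.p6, read on the strand of the gene. Capitals mark GGAAA, the NFAT core (TTTCC where it lies on the opposite strand), and TGANTCA, the AP-1 site, searched on both strands. The motifs do not overlap each other in these windows. The intervals are chr3:121723287-121723536 (plus strand) for F3, chr11:54249900-54250149 (minus strand) for Csf2 and chr11:54267280-54267529 (minus strand) for Il3.
F3: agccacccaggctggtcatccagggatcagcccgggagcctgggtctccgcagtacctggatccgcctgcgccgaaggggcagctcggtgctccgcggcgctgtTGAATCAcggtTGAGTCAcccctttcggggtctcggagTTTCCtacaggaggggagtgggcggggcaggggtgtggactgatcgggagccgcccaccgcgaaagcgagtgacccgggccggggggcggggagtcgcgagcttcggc
Csf2: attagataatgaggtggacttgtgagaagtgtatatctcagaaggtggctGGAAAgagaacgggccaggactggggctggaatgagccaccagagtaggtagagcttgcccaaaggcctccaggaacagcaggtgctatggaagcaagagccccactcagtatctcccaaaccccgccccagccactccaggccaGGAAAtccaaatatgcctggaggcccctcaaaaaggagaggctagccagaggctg
Il3: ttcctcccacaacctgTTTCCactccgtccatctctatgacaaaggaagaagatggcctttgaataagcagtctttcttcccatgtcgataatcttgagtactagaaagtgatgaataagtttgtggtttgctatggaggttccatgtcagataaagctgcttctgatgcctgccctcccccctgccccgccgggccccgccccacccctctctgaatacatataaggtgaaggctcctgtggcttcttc
F3 held 1 NFAT core (at -108 from the start site) and 2 AP-1 sites (at -146 and -135). Csf2 held 2 NFAT cores (at -200 and -55) and Il3 held 1 (at -234), with no AP-1 match in either window. Of 32851 promoters of this length, 55.6% held GGAAA, 6.75% held TGANTCA and 3.82% held both. These are matches of letters in the reference genome, which is that of C57BL/6J, and the DBA/2J sequence was not analysed here.

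Rgs16 speeds the shut-off of G proteins and so dampens chemokine receptor signalling. Its values were even within DBA/2J, 10.82, 10.80 and 10.85, above the others at 9.05 to 9.90 (median 9.53). The T1 difference was 1.34 (SE 0.09, adjusted p = 4.94e-08; limma), called against each strain, with a T0 difference of 0.22 and a response difference of 1.12 (SE 0.14, adjusted p = 7.5e-06; limma). Slco4a1, an organic anion transporter gene, read 8.71, 8.87 and 8.60 against 6.81 to 8.27 (median 7.39) and was 1.29 higher (SE 0.14, adjusted p = 1.49e-05; limma). Its response difference was 0.93. Abhd17b, a depalmitoylase gene, read 9.15, 9.23 and 9.01 against 7.57 to 8.58 (median 8.09) and was 0.96 higher (SE 0.11, adjusted p = 2.45e-05; limma), with a response difference of 0.67.

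Havcr1 and Timd2 lie side by side on chromosome 11 and encode TIM-1 and TIM-2, surface receptors that tune T cell activation. The locus is known for variation between Balb/c and DBA/2 mice. Havcr1 read 7.86, 8.36 and 7.34 in DBA/2J and 5.71 to 7.29 elsewhere (median 6.19), a difference of 1.50 (SE 0.17, adjusted p = 4.29e-05; limma). Its nearest strain was 129X1/SvJ, from which it differed by 0.84 (adjusted p = 0.0534, and 0.0338 without the library that opposed its label). Timd2 read 5.69, 5.81 and 5.20 against 3.56 to 5.01 (median 4.16), a difference of 1.29 (SE 0.18, adjusted p = 0.000258; limma), and 129X1/SvJ was again nearest, at 0.67 (adjusted p = 0.153). At T0 the differences were 0.65 for Havcr1 and -0.06 for Timd2, and the response differences were 0.86 (adjusted p = 0.0411) and 1.35 (adjusted p = 0.000423; limma). Timd4, the next family member, encodes a receptor for phosphatidylserine on macrophages. It read 4.93, 5.16 and 4.83, below all other arrays (5.24 to 6.30, median 5.73), and differed by -0.73 (adjusted p = 0.0151). That call was lost without DBA/2J T1 replicate 2 or 4 (0.0907 and 0.106; limma), and Timd4 values lay close to the limit for keeping a gene. Timd2 lay near that limit in DBA/2J at T1 and under it in the others. At T0 all Timd2 arrays lay under it, at 3.29 to 3.46 in DBA/2J and 3.13 to 3.75 in the others. The sizes for both genes are therefore not exact.

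**Figure D3:**
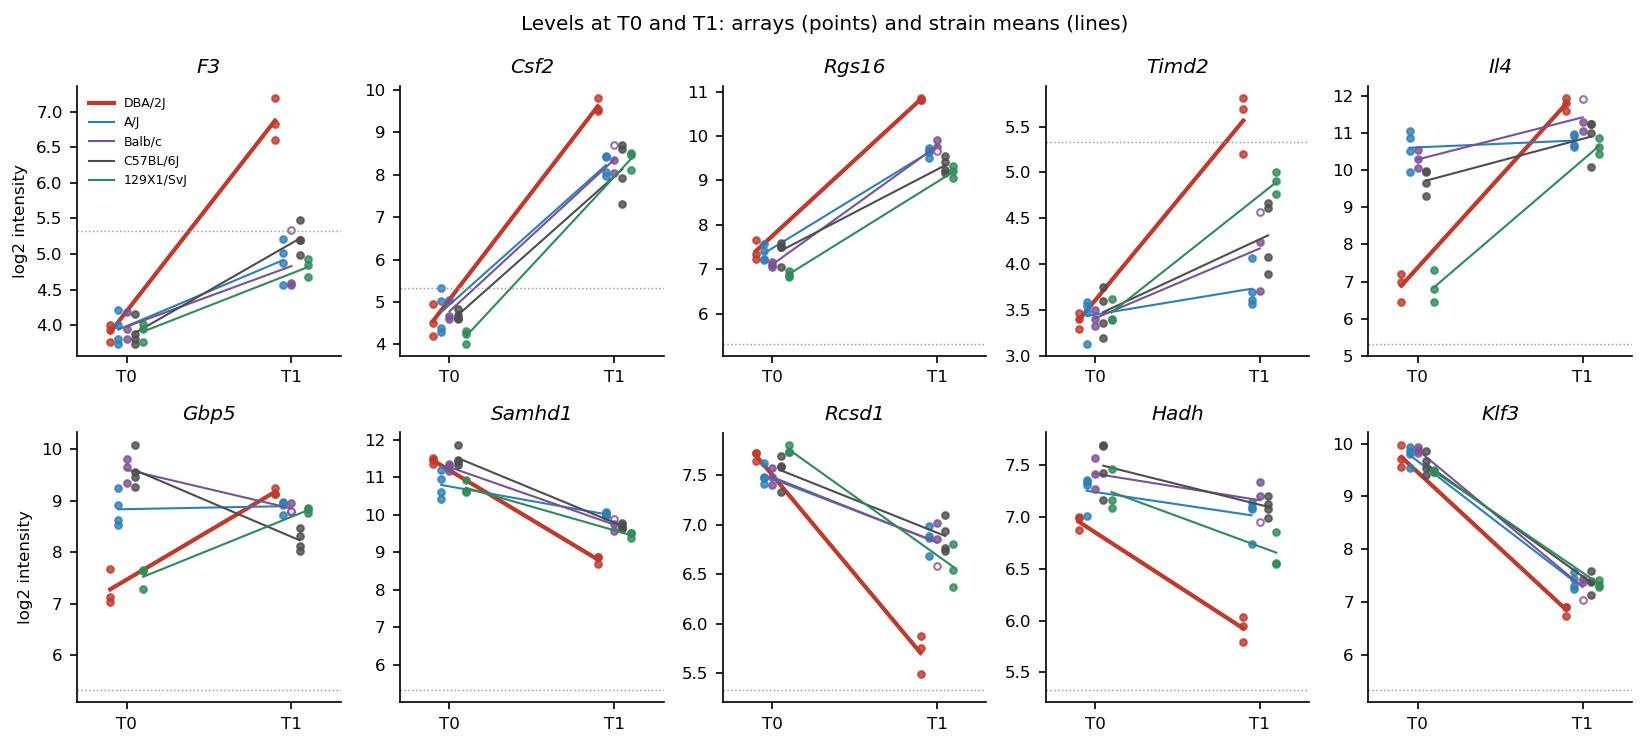
Log2 intensity of 10 genes at T0 and T1, with points for arrays and lines joining the means of each of the 5 strains, DBA/2J in red. F3, Csf2, Rgs16 and Timd2 start within the other strains and end above them, Il4 and Gbp5 start low in DBA/2J and end high, and Samhd1, Rcsd1, Hadh and Klf3 end below the other strains.

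Of 31 cytokine genes kept, 4 were higher in DBA/2J at T1 (Csf2, Il17f, Il3 and Il4) and 1 was lower (Tnfsf10, lost without any of 11 arrays), with a median difference of 0.03 against 0.00 over all genes kept. Of all genes kept, 1.98% were higher and 4.83% lower. Without DBA/2J T1 replicate 2, 3 or 4, 2 of the 31 were higher in each case. At T0 none of the 31 was higher and 8 were lower, where 3.27% and 4.05% of all genes were. Il4, the defining cytokine of Th2 cells, read 11.94, 11.61 and 11.82 in DBA/2J at T1, while the others ran from 10.10 through 10.94 to 11.91. At T0 it read 7.21, 7.0 and 6.46, with the others at 6.44 to 11.07 (median 9.96). The T0 difference was -2.48 (adjusted p = 8.37e-07), and 129X1/SvJ was low at T0 as well, with a mean of 6.85 against 6.89 in DBA/2J. The response difference of 3.32 (SE 0.31, adjusted p = 4.12e-08; limma) was the largest of the named genes. The T1 difference was 0.85 (adjusted p = 0.0146), a call lost without DBA/2J T1 replicate 2 or 4 (0.106 and 0.0755; limma). Il17f, a Th17 cytokine gene, was 0.99 higher (adjusted p = 0.0115) and lost its call without DBA/2J T1 replicate 3 or 4 (0.0507 and 0.122; limma).

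Il2, Ifng and Tnf, the cytokines most often used to score T cell activation, were not called at T1. Il2 read 10.68, 10.41 and 10.60 in DBA/2J against 10.15 to 11.53 (median 10.75), with a difference of -0.14 (SE 0.18, adjusted p = 0.7). Ifng differed by 0.09 (SE 0.14, adjusted p = 0.778) and Tnf by -0.24 (SE 0.09, adjusted p = 0.104; limma). At T0 Il2 read 3.49 to 4.15 in DBA/2J and 3.75 to 5.66 in the others (median 5.19). Ifng read 5.19 to 5.41 and 5.06 to 7.18 (median 6.53), so the groups overlapped in both genes. These DBA/2J levels lay about or under the limit for keeping a gene, so sizes that use them are not exact. Before stimulation both Il2 (-1.14, adjusted p = 9.67e-05) and Ifng (-1.10, adjusted p = 0.000539) were lower in DBA/2J than the mean of the other strains. Their response differences were 1.00 (adjusted p = 0.0216) and 1.19 (adjusted p = 0.00349; limma). Cd69, the early activation marker, had the same form, with 0.14 at T1, -0.65 at T0 and a response difference of 0.79 (adjusted p = 0.0357; limma). Cish, a cytokine-induced inhibitor of STAT5 signalling, read 6.56 to 6.77 in DBA/2J at T0. The others ran from 6.75 to 9.23 (median 8.69), so the groups overlapped there too. Cish differed by 0.03 at T1 (adjusted p = 0.93). Its response difference was 1.64 (adjusted p = 5.04e-08; limma).

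Among 15 chemokine genes kept, 3 were higher at T1 and none lower (limma), with a median difference of 0.19 and a background of 1.98% higher. Without DBA/2J T1 replicate 2, 1 was higher. Ccl4, an inflammatory chemokine gene, read 12.11, 12.07 and 11.98 against 10.77 to 12.10 (median 11.25) and was 0.68 higher (SE 0.11, adjusted p = 0.000797; limma). This call held without each array in turn. Ccl1, a ligand of CCR8, was 1.30 higher with arrays at 9.28, 8.36 and 8.70 (others 6.57 to 8.79), and its call was lost without DBA/2J T1 replicate 2, where the difference was 1.06 (adjusted p = 0.0782; limma). Ccl3 was 0.34 higher, and lost its call without any 1 of the 3 DBA/2J arrays. Gzmb, the serine protease of cytotoxic granules, was 1.17 higher with a response difference of 1.69 (adjusted p = 0.00407; limma). Its DBA/2J T0 values (4.38 to 4.85) lay under the limit for keeping a gene, so the size of the response difference is not exact. The T1 call of Gzmb was lost without DBA/2J T1 replicate 2, 3 or 4 (0.0694, 0.118 and 0.0666; limma). Hbegf, a growth factor of the EGF family, was 0.94 higher and lost its call without the same arrays (0.112, 0.0854 and 0.107).

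Guanylate-binding proteins are GTPases that interferon induces against microbes inside cells. Of 20 kept genes of this group with their IRG and Ifi200 relatives, 3 were higher at T1 and 4 lower (1.98% and 4.83% over all genes), with a median of 0.01. Without DBA/2J T1 replicate 2, 3 and 4 the higher genes numbered 2, 1 and 2 and the lower ones 1, 2 and 1. At T0 1 was higher and 9 were lower (3.27% and 4.05% over all genes), with a median of -0.70. Gbp9 read 9.77, 9.45 and 9.80 in DBA/2J at T1 against 8.12 to 9.63 (median 9.12), a difference of 0.71 (SE 0.13, adjusted p = 0.00266; limma). At T0 it differed by -0.76, and its response difference was 1.47 (adjusted p = 0.000295). Its neighbour Gbp8 was lower at both times, as given above. Gbp5 was 0.47 higher at T1, -1.61 at T0, with a response difference of 2.08 (SE 0.20, adjusted p = 5.04e-08), and its T1 call was lost without DBA/2J T1 replicate 3 (0.0571; limma). Gbp4 differed by 0.19 at T1 (adjusted p = 0.472) and by -1.31 at T0, with a response difference of 1.49 (adjusted p = 0.00036; limma). At T0 some other arrays were as low as DBA/2J in Gbp4 (8.95 to 9.43, others 9.37 to 11.52) and Gbp5 (7.03 to 7.68, others 7.28 to 10.08). This also held for Gbp9 (7.73 to 8.14, others 7.77 to 9.80).

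Gbp2b, which C57BL/6J also has at a low level, read 5.36, 5.26 and 4.91 in DBA/2J at T1, about the limit for keeping a gene, where the others ran from 4.77 to 9.15 (median 8.25). Its difference of -2.16 (SE 0.51, adjusted p = 0.0151) was lost without DBA/2J T1 replicate 2, 3 or 4 (0.0694, 0.0726 and 0.0931), and was -2.49 (adjusted p = 2.1e-09; limma) without the library labelled Balb/c T1 replicate 2, whose Gbp2b value of 4.86 lay with C57BL/6J. Gbp11 was 0.90 higher (adjusted p = 0.0367), and lost its call without any of 6 arrays, among them each DBA/2J array (0.137, 0.125 and 0.158), A/J T1 replicate 2 (0.0537), and 129X1/SvJ T1 replicates 1 and 4 (0.0568 and 0.0515; limma). Gbp genes are close in sequence, so probe sets of 1 member can read another.

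Samhd1, an enzyme that destroys the building blocks of DNA and so limits retroviruses, is counted here with the interferon response. It read 8.68, 8.86 and 8.88 in DBA/2J at T1 and 9.37 to 10.06 in the others (median 9.74), with no overlap. It was lower by 0.92 (difference -0.92, SE 0.08, adjusted p = 1.64e-06; limma), called against each strain, while its T0 difference was 0.38 (adjusted p = 0.111). The response difference was -1.29 (SE 0.16, adjusted p = 3.62e-06; limma). Over all genes kept, 4.83% were lower at T1 and 1.98% higher. Of the 27 interferon response genes kept, 4 were lower at T1 (Samhd1, Ddx58, Ifih1 and Ifi27l2a) and none higher, with a median of 0.02. The latter 3 differed by -0.54 to -0.69 and lost their calls without DBA/2J T1 replicate 2 or 3 (adjusted p from 0.0634 to 0.149; limma).

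Rcsd1, an actin-capping partner protein gene, and Hadh, an enzyme of fatty acid beta-oxidation, had lower levels at T1 and negative response differences as well. Rcsd1 read 5.75, 5.87 and 5.49 against 6.37 to 7.10 (median 6.83), a difference of -1.08 (SE 0.12, adjusted p = 1.54e-05; limma). At T0 its difference was 0.13, and the response difference was -1.21 (adjusted p = 1.11e-06). Hadh read 5.95, 5.79 and 6.03 against 6.55 to 7.34 (median 7.08), a difference of -1.06 (SE 0.10, adjusted p = 5.12e-06; limma), with -0.40 at T0 and a response difference of -0.67 (adjusted p = 0.0132). Pigw, an enzyme of GPI anchor synthesis, stayed at the same level at both times in DBA/2J, 5.95 to 5.97 at T1 and 5.95 to 6.01 at T0, while the others lay at 6.91 to 7.64 at T1 (median 7.11) and 6.37 to 6.75 at T0. It was lower by 1.21 (difference -1.21, SE 0.11, adjusted p = 2.18e-06; limma), with a response difference of -0.62 (adjusted p = 0.00777).

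Among genes of T cell receptor signalling, the calls at T1 all had one direction. The receptor passes its signal through CD3 chains and co-receptors to the adaptors LAT and GRAP2, and on to phospholipase C, RasGRP1 and protein kinase C theta. Of 25 such genes kept, 10 were lower and none was higher, 22 had negative differences, and the median was -0.31, against 0.00 over all genes and a background of 4.83% called lower. The list had 11 lower genes under quantile normalization and under median centring, 12 without the library labelled Balb/c T1 replicate 2, and 5, 6 and 7 without DBA/2J T1 replicate 2, 3 and 4. At T0 3 of the 25 were higher and 6 lower, where 3.27% and 4.05% of all genes kept were.

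Themis, a regulator of receptor signal strength, read 6.67, 6.81 and 6.94 in DBA/2J and 7.26 to 8.26 in the others (median 7.55), a difference of -0.75 (SE 0.13, adjusted p = 0.00237; limma). Rasgrp1, which activates Ras downstream of diacylglycerol and is thus a direct target of PMA, read 9.16, 9.12 and 9.37 against 9.48 to 10.02 (median 9.78), a difference of -0.57 (SE 0.09, adjusted p = 0.000843; limma). Lat, the membrane scaffold of the pathway, read 10.09, 9.87 and 10.05 against 10.13 to 10.91 (median 10.58), a difference of -0.53 (SE 0.09, adjusted p = 0.00225; limma). In these 3 genes the DBA/2J arrays lay below all others. Grap2 (-0.63) and the surface receptor gene Cd6 (-0.59) overlapped slightly with the others, and all 5 genes kept their calls without each array in turn. Cd4 differed by -0.65 (adjusted p = 0.0111), a call lost without DBA/2J T1 replicate 2 or 3 (0.0877 and 0.0688), with a response difference of -0.88 (adjusted p = 0.00236; limma). Prkcq, which encodes protein kinase C theta, differed by -0.54, and that call was lost without DBA/2J T1 replicate 2. Plcg1, Cd3d and Ubash3a differed by -0.57 to -0.51 and each lost its call without any 1 DBA/2J array.

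The lower level of this list was not shared evenly among the strains. Of the 25 genes, 14 were lower against A/J, 7 against Balb/c, 12 against C57BL/6J and none against 129X1/SvJ (limma), where 5.2%, 2.97%, 6.99% and 1.31% of all genes kept were lower, with medians of -0.55, -0.42, -0.45 and -0.08. Without the library labelled Balb/c T1 replicate 2, 16, 14, 13 and 2 were called. The mean of the list on each array was 8.45 to 8.53 in DBA/2J and 8.46 to 9.11 in the others, the lowest being a 129X1/SvJ array. General T cell markers, a list that shares Cd3d and Cd4 with this one, leaned the same way: 9 of 10 had negative differences, 3 were called lower (Cd3d, Cd4 and Thy1; none without DBA/2J T1 replicate 2 or 3 and 1 without replicate 4), and their mean per array was 9.14 to 9.29 in DBA/2J, 9.04 to 9.26 in 129X1/SvJ and 9.41 to 9.83 in the other 3 strains. Their part in the signalling list's result was not tested.

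Genes of the resting, recirculating T cell leaned lower too. This list holds factors that keep T cells quiescent, such as Klf3, Lef1 and Btg2, and receptors that guide them through lymphoid tissue, such as S1pr1 and Cxcr4. Of 25 kept, 7 were lower and none higher, with a median of -0.24, where 4.83% of all genes were lower. There were 2, 1 and 3 lower without DBA/2J T1 replicate 2, 3 and 4, and 10 without the library labelled Balb/c T1 replicate 2. The mean of the list was 8.64 to 8.65 on the DBA/2J arrays and 8.69 to 9.10 on the others. The groups did not overlap, but the margin was narrow. The nearest arrays were 129X1/SvJ T1 replicates 2 and 4 (8.69 and 8.71) and the library labelled Balb/c T1 replicate 2 (8.71). At T0 the same means were 9.82 to 9.95 in DBA/2J and 9.70 to 9.87 in the others. Of the 25 genes, 2 were higher and 2 lower at T0, where 3.27% and 4.05% of all genes kept were.

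Pecam1, an adhesion and inhibitory receptor that naive T cells carry, read 7.06, 7.17 and 7.18 against 7.38 to 7.98 (median 7.79) and differed by -0.60 (SE 0.09, adjusted p = 0.000685; limma), which held without each array in turn. S1pr1, the receptor through which T cells leave lymph nodes, read 6.64, 6.96 and 6.93 against 6.97 to 8.31 (median 7.73). Its difference was -0.85 (adjusted p = 0.0177), lost without DBA/2J T1 replicate 2, 3 or 4 (0.132, 0.0677 and 0.0665), and its response difference was -1.11 (adjusted p = 0.00626; limma). Klf3 read 6.91, 6.74 and 6.91 against 7.03 to 7.59 (median 7.38), a difference of -0.50 (SE 0.10, adjusted p = 0.00761) that was lost without DBA/2J T1 replicate 3 (0.0777; limma). Lef1 (-0.68), Selplg (-0.54), Btg2 (-0.43) and Cxcr4 (-0.34) were called, and these calls were lost without DBA/2J T1 replicate 2 or 3 for each, and without any of 13 arrays for Selplg and 12 for Btg2. By strain, 8 of the 25 were lower against A/J, 2 against Balb/c, 6 against C57BL/6J and none against 129X1/SvJ, beside 5.2%, 2.97%, 6.99% and 1.31% of all genes, and 10, 10, 10 and 1 were called without the library that opposed its label.

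**Figure D4:**
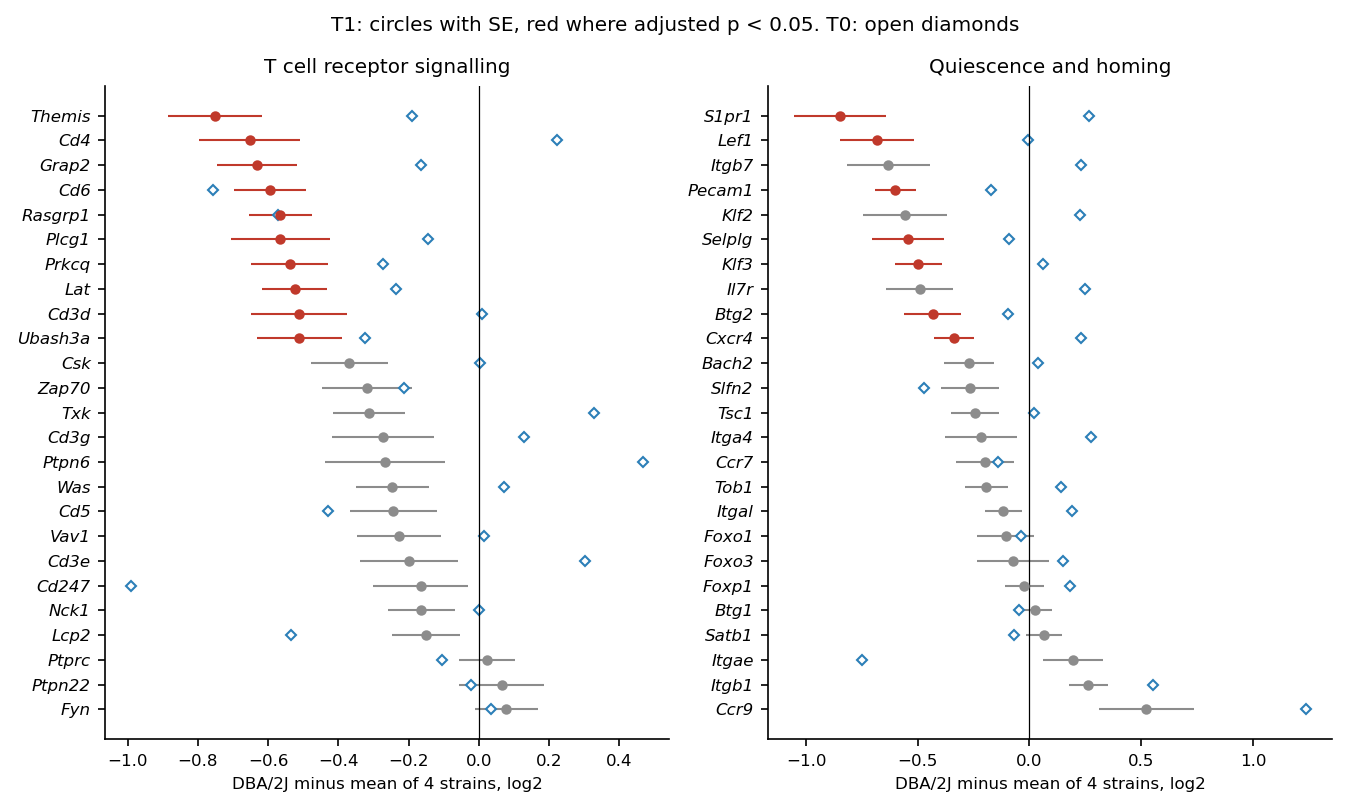
DBA/2J minus the mean of the 4 other strain means in log2 units for the 25 kept genes of T cell receptor signalling and the 25 of quiescence and homing, as circles with SE at T1 (red where the adjusted p was under 0.05) and open diamonds at T0. Most circles lie left of 0 in both lists, whereas the diamonds of the quiescence list lie on both sides of 0.

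**Figure D5:**
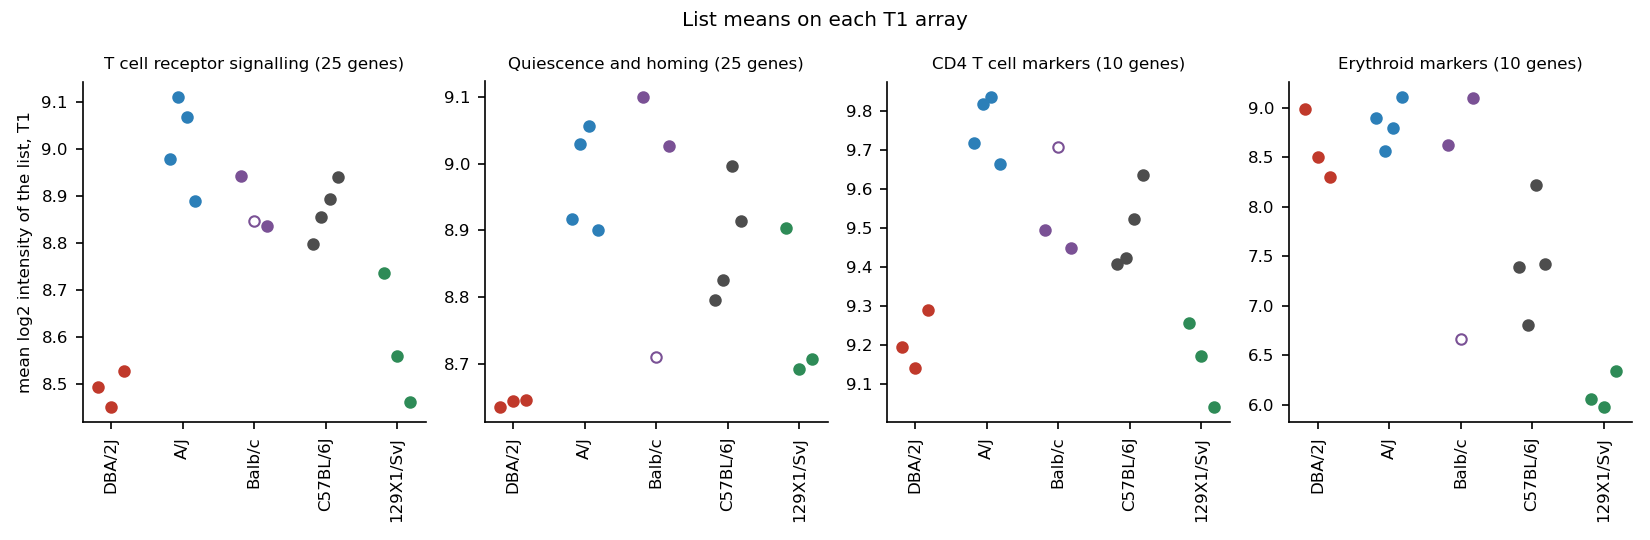
Mean log2 intensity of the kept members of each list on every T1 array, 1 point per array in each of the 5 strains, with an open circle for the library labelled Balb/c T1 replicate 2. The DBA/2J points of the quiescence list lie below all others by a narrow margin, the nearest being a 129X1/SvJ array. Those of the T cell receptor signalling and T cell marker lists lie beside 129X1/SvJ. Of the 3 erythroid points 1 lies among those of A/J and 2 lie below them, all above 129X1/SvJ.

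Negative feedback genes, which end signalling once it has started, divided in direction. Of 28 kept, Rgs16 was higher and 4 were lower, and 7 were lower without the library labelled Balb/c T1 replicate 2. The shares over all genes kept were 1.98% higher and 4.83% lower, and 3.62% and 9.16% without that library. Dusp10, a phosphatase of the kinases JNK and p38, read 7.88, 7.89 and 8.15 against 8.32 to 9.10 (median 8.64), a difference of -0.70 (SE 0.12, adjusted p = 0.00124; limma) that held without each array in turn and was -1.17 at T0. Dgka, Zfp36l2 and Dusp6 differed by -0.62 to -0.46. Dgka lost its call without DBA/2J T1 replicate 2 or 3, Zfp36l2 without any of 14 arrays and Dusp6 without any of 13. Of 30 early transcription factor genes, 1 was higher (Atf3, 0.35) and 2 were lower (Fos, -0.68, and Ier2, -0.48), and all 3 calls were lost without DBA/2J T1 replicate 2 or 3, that of Ier2 without any of 12 arrays. Of the 30, 6 were lower without the library labelled Balb/c T1 replicate 2. Of 19 NF-kappaB pathway genes, Tnip1 (-0.45) and Birc3 (-0.42) were lower and none was higher, and both were lost without any 1 DBA/2J array, while 4 were lower and 1 higher without the library that opposed its label. Among 29 activation receptor genes 1 was called (Cd83, 0.41, lost without any of 9 arrays), and without the library labelled Balb/c T1 replicate 2 there were 9 higher and 1 lower.

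Class II genes of the major histocompatibility complex were higher in 3 of 10 kept and lower in 2, with a median of 0.46. The shares over all genes kept were 1.98% higher and 4.83% lower. Beside H2-Ea, Cd74, the invariant chain that guards the peptide groove, read 11.13, 11.22 and 11.13 against 9.40 to 11.17 (median 10.14). It was 0.95 higher (SE 0.12, adjusted p = 0.000127; limma) and 0.96 higher at T0. Ciita, the master regulator of class II genes, was 0.59 higher, a call lost without DBA/2J T1 replicate 3. H2-Ob (-0.54) and H2-Eb2 (-0.45), the latter a neighbour of H2-Ea, were lower. H2-Ob lost its call without DBA/2J T1 replicate 2 or 4 (adjusted p = 0.0918 and 0.15; limma). H2-Eb2 lost its call without DBA/2J T1 replicate 2, 3 or 4 (0.189, 0.1215 and 0.112) or 129X1/SvJ T1 replicate 1 (0.052; limma). Its DBA/2J values, 5.02 to 5.15, lay under the limit for keeping a gene, so its size is not exact. B cells carry class II as well: of 13 B cell genes 1 was lower at T1 (Ralgps2, -0.45), 10 had positive differences, and the mean per array was 6.93 to 7.15 in DBA/2J and 6.41 to 7.27 in the others. Their part in the class II values was not tested. At T0 5 class II and 5 B cell genes were higher and none lower, where 3.27% of all genes were higher and 4.05% lower. Of 16 class I genes, 4 were lower at T1 (H2-T10, Psmb8, H2-M3 and Psmb10) and none higher, but 0, 2 and 1 were lower without DBA/2J T1 replicate 2, 3 and 4. The call of Psmb8 was lost without any of 12 arrays, that of H2-M3 without any 1 DBA/2J array and that of Psmb10 without DBA/2J T1 replicate 2 or 4.

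Lineage genes gave few calls. Of 12 Th17 and follicular helper genes, 3 were higher (Il17f, Il23r and Ahr) and 2 lower (Sh2d1a and Bcl6), where 1.98% and 4.83% of all genes were. Without any 1 DBA/2J array 1 was higher and 1 lower. Ahr lost its call without each of these arrays, Bcl6 without replicate 2 or 4 (adjusted p = 0.0881 and 0.104) and Sh2d1a without replicate 3 (0.116; limma). Il23r, the receptor that maintains Th17 cells, read 7.0, 6.70 and 6.86 against 5.35 to 6.41 (median 6.06), a difference of 0.79 (adjusted p = 0.00437; limma) at T1 and 0.79 at T0, and its T1 call was lost without DBA/2J T1 replicate 2. Of 12 Th1 genes, Gzmb was higher and Il18r1 lower. Il18r1, the IL-18 receptor chain, read 5.70, 5.84 and 5.54 against 5.69 to 6.59 (median 6.26) and differed by -0.53 (SE 0.09, adjusted p = 0.0011; limma), which held without each array in turn. Of 13 Th2 genes Il4 alone was called. Of 17 regulatory T cell genes, Capg and Nrp1 were higher and Izumo1r lower, the calls of Nrp1 being lost without any of 16 arrays and of Izumo1r without any 1 DBA/2J array, while Foxp3, the lineage factor, differed by 0.01 (SE 0.14, adjusted p = 0.981; limma). Capg, an actin-capping protein gene, read 9.89, 9.86 and 9.71, above all others (8.50 to 9.68, median 9.08), and was 0.66 higher (SE 0.12, adjusted p = 0.00222; limma).

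Growth and metabolism lists gave few calls at T1, where 1.98% of all genes kept were higher and 4.83% lower. In ribosome biogenesis, the making of ribosomes that activated cells step up, 24 of 26 genes had positive differences with a median of 0.20, but 1 was called (Rrp1b, 0.45, lost without any 1 DBA/2J array). Cholesterol synthesis (18 genes), glycolysis (15) and apoptosis (17) had 1 higher gene each, Idi1, Hk2 and Bcl2l11. Idi1 lost its call without any of 8 arrays, Hk2 without any 1 DBA/2J array and Bcl2l11 without DBA/2J T1 replicate 2 or 3. Proliferation (24 genes) had 1 higher, Ccnd2, and 1 lower, Mcm6, the former lost without any 1 DBA/2J array and the latter without DBA/2J T1 replicate 4. In the family of Schlafen, Gimap and Ly6 genes, 3 of 19 were higher and 1 lower, and 2 and none without any 1 DBA/2J array. Ly6d, a marker of early lymphocyte stages, read 7.51, 7.81 and 7.56 against 5.83 to 7.60 (median 6.65) and was 0.96 higher (SE 0.18, adjusted p = 0.00299; limma), and Slfn8 was 0.55 higher (SE 0.10, adjusted p = 0.00211). Both calls held without each array in turn. Of 18 kept genes known to vary between strains, 5 were higher (H2-Ea, Havcr1, Timd2, Myo5a and Ahr) and 1 lower (Thy1), where 1.98% and 4.83% of all genes were. Without any 1 DBA/2J array 3 were higher and none lower. Myo5a and Ahr lost their calls without each of these arrays and Thy1 without any of 7 arrays. Leaving out the library labelled Balb/c T1 replicate 2 gave 3 lower.

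Markers of other cells were compared over whole lists. The shares over all genes kept were 1.98% higher and 4.83% lower, and 3.62% and 9.16% without the library labelled Balb/c T1 replicate 2. All 10 erythroid genes had positive differences with a median of 1.12, and none was called (limma). The other strains lay far apart: the mean per array was 8.30 to 8.99 in DBA/2J, 8.56 to 9.11 in A/J, and 5.98 to 6.34 in 129X1/SvJ. Against 129X1/SvJ alone 6 of the 10 were higher, and without the library labelled Balb/c T1 replicate 2, 5 were higher against the 4 strains. Of 22 myeloid and dendritic cell genes, Siglech was higher and Lyz2 and Hmox1 were lower. Siglech lost its call without any 1 DBA/2J array or 129X1/SvJ T1 replicate 1, and Hmox1 without DBA/2J T1 replicate 2 or 4 (adjusted p = 0.189 and 0.152; limma). In all 4 were lower without the library labelled Balb/c T1 replicate 2. Lyz2, lysozyme of macrophages, read 6.41, 7.49 and 6.71 against 7.01 to 9.13 (median 8.37) and differed by -1.48 (adjusted p = 0.00335), a call lost without DBA/2J T1 replicate 2 (0.0514; limma). Of 8 CD8 and NK cell genes 1 was lower (Cd8b1, -0.53, lost without DBA/2J T1 replicate 2 at 0.0736), and among 8 plasma cell, 6 neutrophil, 3 platelet and 8 killer cell lectin-like receptor genes none was called. Their part in any result above was not tested.

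Set against each strain alone at T1, with all 17 arrays in the fit, DBA/2J differed from C57BL/6J in 1183 genes (10.8%), from A/J in 1041 (9.51%), from Balb/c in 434 (3.96%) and from 129X1/SvJ in 303 (2.77%). Against C57BL/6J 418 were higher (3.82%) and 765 lower (6.99%). Against A/J the counts were 472 (4.31%) and 569 (5.2%), against Balb/c 109 (0.995%) and 325 (2.97%), and against 129X1/SvJ 159 (1.45%) and 144 (1.31%). These comparisons share the DBA/2J arrays. Without the library labelled Balb/c T1 replicate 2 the counts were 1804 (16.5%), 1707 (15.6%), 1151 (10.5%) and 594 (5.42%) in that order of strains. Without DBA/2J T1 replicate 2, 3 and 4 they were 573, 599 and 731 for C57BL/6J, 469, 439 and 645 for A/J, 199, 178 and 197 for Balb/c and 145, 197 and 184 for 129X1/SvJ. Leaving out an array of the strain compared also lowered the count for A/J (598 and 689 without replicates 2 and 4), Balb/c (224 and 251 without replicates 1 and 4) and 129X1/SvJ (142, 197 and 201 without replicates 1, 2 and 4). F3, Mlycd, Stab2, Zfp949, Rgs16 and Csf2 were called higher, and Ndrg3, Pigw, Hadh, Rcsd1, Samhd1 and Sft2d2 lower, against each of the 4 strains.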

How the data were processed

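RNA of each sample was hybridised to 1 Affymetrix array. The authors deposited log2 intensities, 1 per probe set and array, made with RMA (per the submitters' processing notes; version not given in the sources used here), which corrects background, equalises array distributions by quantile normalization and sums probes. Of 35556 probe sets, 21789 had 1 gene symbol in GEO's platform annotation, 1621 several and 12146 none, and 21698 of the gene identifiers were found in the RefSeq table of GRCm38.p6. Each of 19938 genes was represented by its probe set of highest mean over all arrays. The 10951 genes whose highest T1 strain mean reached 5.327, the median of all values, were kept, and 8987 were left out.

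Linear models were fitted with limma 3.58.1 in R 4.3.3: 17 T1 arrays with 5 groups, 17 T0 arrays likewise, and 34 arrays with 10 groups for the response. Benjamini-Hochberg adjustment ran over all genes kept. The script was tested on simulated data. Named genes were the 15 largest called differences each way with no overlap between groups (passing over unnamed transcripts and accession-like symbols), the 8 largest response differences each way, the leading member of each list per direction, fixed activation genes and called neighbours. A gene that met this rule is not reported here. Kcnma1, Trim12a, Rab34, Cd74 and further list members were named after their values were seen. The members and the 32 lists were chosen with earlier results of these data known. Alternatives covered filter, probe set rule, scaling, model and leaving out each array. The number of arrays limits the precision. Whether strain sequence differences lie under probe sets was not tested.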

Additional observations from a re-analysis of the deposited data

Results flagged for a closer look

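In 38 of the 94 named genes the change from T0 to T1 in DBA/2J differed from the mean change of the other 4 strains. The test was the interaction test in limma with Benjamini-Hochberg adjustment over all genes kept, of which 2.39% were called. The 8 largest response differences each way were named for that reason. Other genes were named for T1 calls, which share arrays with the response, so the count of 38 follows in part from the choice. Values below are that difference in log2 units. Cytokine, chemokine and effector genes were positive: Il4 (3.32), Xcl1 (1.83), Gzmb (1.69), Ccl1 (1.43), Csf2 (1.40), Ifng (1.19) and Il2 (1.00). So were 4 guanylate-binding protein genes, Gbp5 (2.08), Gbp11 (1.53), Gbp4 (1.49) and Gbp9 (1.47). Other positive values belonged to F3 (1.96), Cish (1.64), Timd2 (1.35), Rgs16 (1.12), Slco4a1 (0.93), Havcr1 (0.86), Cd69 (0.79), Abhd17b (0.67), Ccnd2 (0.67) and Ndrg3 (0.66). At T0 the DBA/2J levels of Xcl1, Gzmb, Ccl1, Csf2, Il2, F3 and Timd2 lay under the limit for keeping a gene. Those of Ifng lay about it. The sizes for these genes are not exact.

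Negative values were largest for Ccs (-1.51), the copper chaperone of superoxide dismutase, Stab2 (-1.49), Samhd1 (-1.29), the proton channel gene Hvcn1 (-1.29), Vipr1 (-1.29), a receptor for vasoactive intestinal peptide, Rcsd1 (-1.21), the Ras activator Rasgrp3 (-1.20) and Tmem71 (-1.19). S1pr1 (-1.11), Ly6d (-0.99), Siglech (-0.89), Cd4 (-0.88), Hadh (-0.67), Pigw (-0.62), Klf3 (-0.56), Ralgps2 (-0.55) and Il18r1 (-0.51) followed. Ccs, Hvcn1, Rasgrp3 and Siglech were higher in DBA/2J at T0, by 1.38, 0.99, 1.36 and 1.38. Response calls of 3 genes were lost on leaving out 1 array: Gbp11 without DBA/2J T0 replicate 4 (0.0799) or T1 replicate 4 (0.0551), Vipr1 without DBA/2J T0 or T1 replicate 2 (0.0727 and 0.0955), and Rasgrp3 without DBA/2J T1 replicate 2 or 4 (0.0656 and 0.075) or T0 replicate 3 or 4 (0.0905 and 0.059; adjusted p, limma).

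In 8 of 188 groups of 4 arrays, 1 array lay apart from its 3 partners, where chance gives about 1 in 20 groups. These were A/J arrays at 9.09 for Dusp10 (partners 8.88 to 8.91), 9.13 for Lyz2 (8.22 to 8.32) and 6.98 for Tmem71 (6.46 to 6.50), and C57BL/6J arrays at 8.67 for Il17f (8.07 to 8.13), 7.73 for Gimap1 (8.02 to 8.06), 7.21 for Pigw (each at 7.06), 6.74 for Sfi1 (7.03 to 7.06) and 6.10 for Zfp141 (6.45 to 6.50).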

How the results depend on the processing

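No called gene among the named ones reversed, 8 of 78 were called in every setting run (F3, H2-Ea, Mlycd, Ndrg3, Rgs16, Snord15a, Stab2 and Zfp949), and 44 lost their call on leaving out 1 array. The T1 count of 746 became 1275 with all 34 arrays in 1 fit, 2253 with array weights, 15 with arrays numbered 1 and 2, and 309 with those numbered 3 to 5. In the same 4 settings the counts were 1821, 2977, 17 and 526 against A/J, 897, 1934, 12 and 219 against Balb/c, 1834, 2084, 12 and 733 against C57BL/6J, and 536, 843, 25 and 99 against 129X1/SvJ. Leaving out each array in turn gave 236 to 1399 at T1, 439 to 1707 against A/J, 178 to 1151 against Balb/c, 573 to 1804 against C57BL/6J, 142 to 594 against 129X1/SvJ, 445 to 839 at T0 and 135 to 584 for the response. Fewer arrays enter the numbered and left-out fits, and the cause of the other changes was not tested.

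With the replicate number as a replicate block 630 genes were called at T1, 511 of them among the 746, and with strain and number as the block 412 were called for the response. The labels do not say whether the numbers pair samples. Deviations of T1 and T0 arrays with the same strain and number correlated above 0.1 in 14 of 17 pairs (-0.069 to 0.495, median 0.271). With the same strain and different numbers this held in 6 of 42 pairs (-0.386 to 0.265, median -0.114). Taken over all strains, T1 and T0 arrays of the same number were thus more alike. In DBA/2J this was less clear: same-number pairs correlated at 0.03 (replicate 2), 0.271 (replicate 3) and 0.059 (replicate 4). DBA/2J T1 replicate 2 correlated at 0.082 with T0 replicate 4, and T1 replicate 4 at 0.065 with T0 replicate 2. The remaining DBA/2J pairs of different numbers ran from -0.157 to -0.101. The main response fit, with 262 genes called, did not use the numbers. T1 arrays of the same number across strains correlated above 0.1 in 1 of 9 pairs. Of 17 T1 arrays, 12 correlated best with the T0 array of their number.

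Only genes not called at T1 changed sign. Ccs became 0.031 with arrays numbered 3 to 5 and -0.287 to 0.003 on leaving out an array, Il2 0.074 with arrays numbered 3 to 5, Mzb1 0.232 with arrays numbered 1 and 2, and Rasgrp3 -0.03 with the replicate block and -0.013 to 0.294 on leaving out an array. Cish became 0 with quantile normalization, -0.032 with array weights and -0.032 to 0.106 on leaving out an array, and Foxp3 became -0.037 with array weights and -0.102 to 0.134 on leaving out an array. Levels near 5.327 have no exact size of difference.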

Other observations

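Kcnma1, a calcium-activated potassium channel gene, and the transcript AI506816 were chosen here after their values were seen. Kcnma1 lay at 6.99 to 7.68 on the DBA/2J T1 arrays and at 2.53 to 3.49 on the others, except for 10.83 on the library labelled Balb/c T1 replicate 2. Its T1 difference was 3.74 (SE 0.97, adjusted p = 0.0261) with that library and 4.39 (SE 0.17) without it, and its T0 difference was 4.57 (limma). The other arrays lay under the limit for keeping a gene, so these sizes are not exact. AI506816 lay at 9.10 to 9.44 in DBA/2J, 7.65 to 8.52 in A/J and C57BL/6J, 3.87 to 3.99 on the other Balb/c arrays and 2.36 to 2.90 in 129X1/SvJ. It was 3.25 higher at T1 (SE 0.57) and 4.09 at T0, sizes that are not exact either.

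Each leading gene was paired with the nearest kept gene on each side in the RefSeq order. The neighbour was called in 12 of 58 pairs, where 6.81% of all genes kept were called. Of these 12 pairs, 9 were of 1 direction and 3 of opposite directions. The opposite pairs were Gbp8 (-1.47) and Gbp9 (0.71), H2-Ea (4.16) and H2-Eb2 (-0.45), and Havcr1 (1.50) and Timd4 (-0.73). The pairs of 1 direction were Havcr1 with Timd2 (1.29), Csf2 with Il3 (0.90), Trav14-1 with Trav7n-5 (-1.17), Cacna1e with Glul (-0.36), Hadh with Lef1 (-0.68), Tlr1 with Klf3 (-0.50) and with Klhl5 (-0.39), Slc28a2b with Slc28a2 (-0.76) and Zfp141 with AI987944 (-1.01). The last pair has 9 other protein-coding genes between its members. Havcr1 and Timd2 are both leading genes, so the call in that pair followed from the choice. The neighbour calls of Timd2, Gbp9 and AI987944 held without each array in turn. The other neighbours each lost their call on leaving out a DBA/2J array. Glul, Klhl5 and H2-Eb2 also lost it on leaving out an array of another strain. Trav7n-5 (2.72 to 3.25) and AI987944 (4.16 to 4.38) lay under the limit in DBA/2J, so their sizes are not exact. The share of calls that were lower differed between strains when each was set against the other 4 at T1: DBA/2J had 70.9%, 129X1/SvJ 53.4%, A/J 52.8%, C57BL/6J 40.7% and Balb/c 37.9%. Without the library labelled Balb/c T1 replicate 2 the shares were 71.7%, 56.1%, 53.2%, 48.2% and 20.2% in that order, the last over 501 calls in place of 66. With each array centred on its median the DBA/2J share was 54.4%. In DBA/2J at T0 it was 55.4%. These comparisons share arrays, and the difference between the shares was not tested.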
